A study of Macaca mulatta with 10 samples.

Results

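The 10 genes described here encode precursors of neuropeptides other than the opioids: ADCYAP1, VIP, TAC1, TAC3, SST, NPY, CCK, CARTPT, CRH and NTS. They were taken as every probe set annotated to exactly 1 of these symbols, which gave 10 of 11963 genes and 11 of the 19065 probe sets that carry a single gene symbol. CRH has 2 probe sets and the other 9 genes have 1 each. No member probe set is shared with another gene. The samples were small tissue punches from the dorsal thalamus of adult rhesus monkeys (Macaca mulatta) that had received no treatment. RNA from 5 regions, labelled Centre Median, Pulvinar, Anterior Thalamus, Medial Thalamus and Ventral Thalamus, was hybridised to an Affymetrix array designed for human transcripts, with 2 arrays per region numbered replicate 1 and replicate 2. The comparison that the design implies is which genes set each nucleus apart from the other 4. The labels do not say how many animals were used, nor whether a replicate number stands for an animal, so the spread between replicates may be partly technical.

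Neuropeptides are made as larger precursors, cut and amidated inside dense-core vesicles, released on strong or repeated firing, and act through G protein-coupled receptors at a distance from the synapse. Thalamic relay neurons signal with glutamate, and peptides in the thalamus occur in subsets of relay cells, in local and reticular GABA neurons, and in fibres arriving from elsewhere. An array of tissue RNA reports the precursor messenger RNA of cell bodies in the punch and not the peptide in incoming fibres. In such bulk samples fewer cells of a type and less RNA per cell cannot be told apart.

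Levels below are log2(intensity + 1) of the deposited normalised intensities, and differences are differences of such levels. Because human probes were hybridised with monkey RNA and probes differ in brightness, no difference between nuclei was read across probe sets. Ranks among all probe sets and summed marker intensities are given as descriptions of signal strength alone. Punch identity was checked with 6 relay neuron markers, all measured. TCF7L2, a transcription factor of thalamic neurons (probe set 212761_at, 11.78 to 13.00), the glutamate transporter SLC17A6 (10.33 to 11.54) and RORA (210479_s_at, 7.47 to 8.64) were above the array median on all 10 arrays. PRKCD (5.72 to 6.41), GBX2 (4.87 to 6.45) and LHX2 (211219_s_at, 6.03 to 6.65) were below it on all 10, so 3 of 6 markers gave no strong signal. The 2 numbered sets of arrays stood apart: the lowest intensity of an array was 12.0 to 12.3 in replicate 1 and 9.49 to 9.55 in replicate 2, and 54% of all probe sets differed between the sets. XIST, a transcript of the inactive X chromosome, lay at 6.70 to 7.22 on 3 replicate 1 arrays (Anterior, Medial and Ventral Thalamus), at 8.96 and 9.60 on the remaining ones, and at 9.86 to 10.34 throughout replicate 2. RPS4Y1, a gene of the Y chromosome, lay at 8.16 to 8.94 on the same 3 arrays. It lay at 7.65 and 7.22 on the Centre Median and Pulvinar replicate 1 arrays, and at 6.96 to 7.23 throughout replicate 2. The replicate 1 set was therefore not uniform. By these genes it read as RNA of more than 1 animal, of differing sex, which the labels do not state. The actin 3' to 5' signal difference, a sign of RNA quality, was -0.09 to 0.46 in replicate 1 apart from 1.22 in Ventral Thalamus, and 1.15 to 1.36 in replicate 2 apart from 1.64 in Ventral Thalamus. The Medial Thalamus replicate 2 array also stood apart, with the choroid plexus gene TTR at 12.19 against 7.17 to 8.41 on the other 9 arrays and the habenula transcription factor POU4F1 at 7.36 against 5.56 to 6.27. The summed intensity of the striatal markers (5 of 8 genes measured) was 423 to 537 over the 10 arrays, and that of the cortical or hippocampal markers (5 of 6 measured) was 763 to 1209. Such sums weigh the brightest markers most. With the replicate number as a block, limma called 1 of 10 striatal probe sets lower in Ventral Thalamus (0.336% of all called in either direction). Its F test across nuclei called 1 of 10 (0.215% of all), and without the block 0 were called in both. Results that rest on the replicate 2 Medial array are given with and without it.

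Nucleus means of the peptide precursors were spread more widely than those of most genes. The members were chosen with earlier results of these data known. This width and the shares below therefore describe the members and do not test the family. The range of the 5 nucleus means had a median of 1.07 over the 11 probe sets against 0.23 over all probe sets, and it exceeded 1 log2 unit for 6 of 11 member probe sets and for 0.713% of all. These 6 belonged to ADCYAP1, TAC1, SST, CRH (both probe sets) and NTS. TAC1 and VIP lay in the lowest 25% of all probe sets by mean level, and the other 9 member probe sets lay above it. With no term for the replicate number, limma's moderated F test across the 5 nuclei called 0 of 11 member probe sets after Benjamini-Hochberg adjustment (0% of all probe sets were called) and 3 of 11 at an unadjusted p under 0.05 (0.619% of all). Once the replicate number entered as a block, this test called 1 of 11, ADCYAP1 (0.215% of all), and 8 of 11 passed at an unadjusted p under 0.05 (8.92% of all). The ADCYAP1 call by the F test (limma adjusted p = 0.0436) was kept without the replicate 1 array of Medial or of Ventral Thalamus and lost without any other single array (limma adjusted p up to 0.139).

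**Figure D1:**
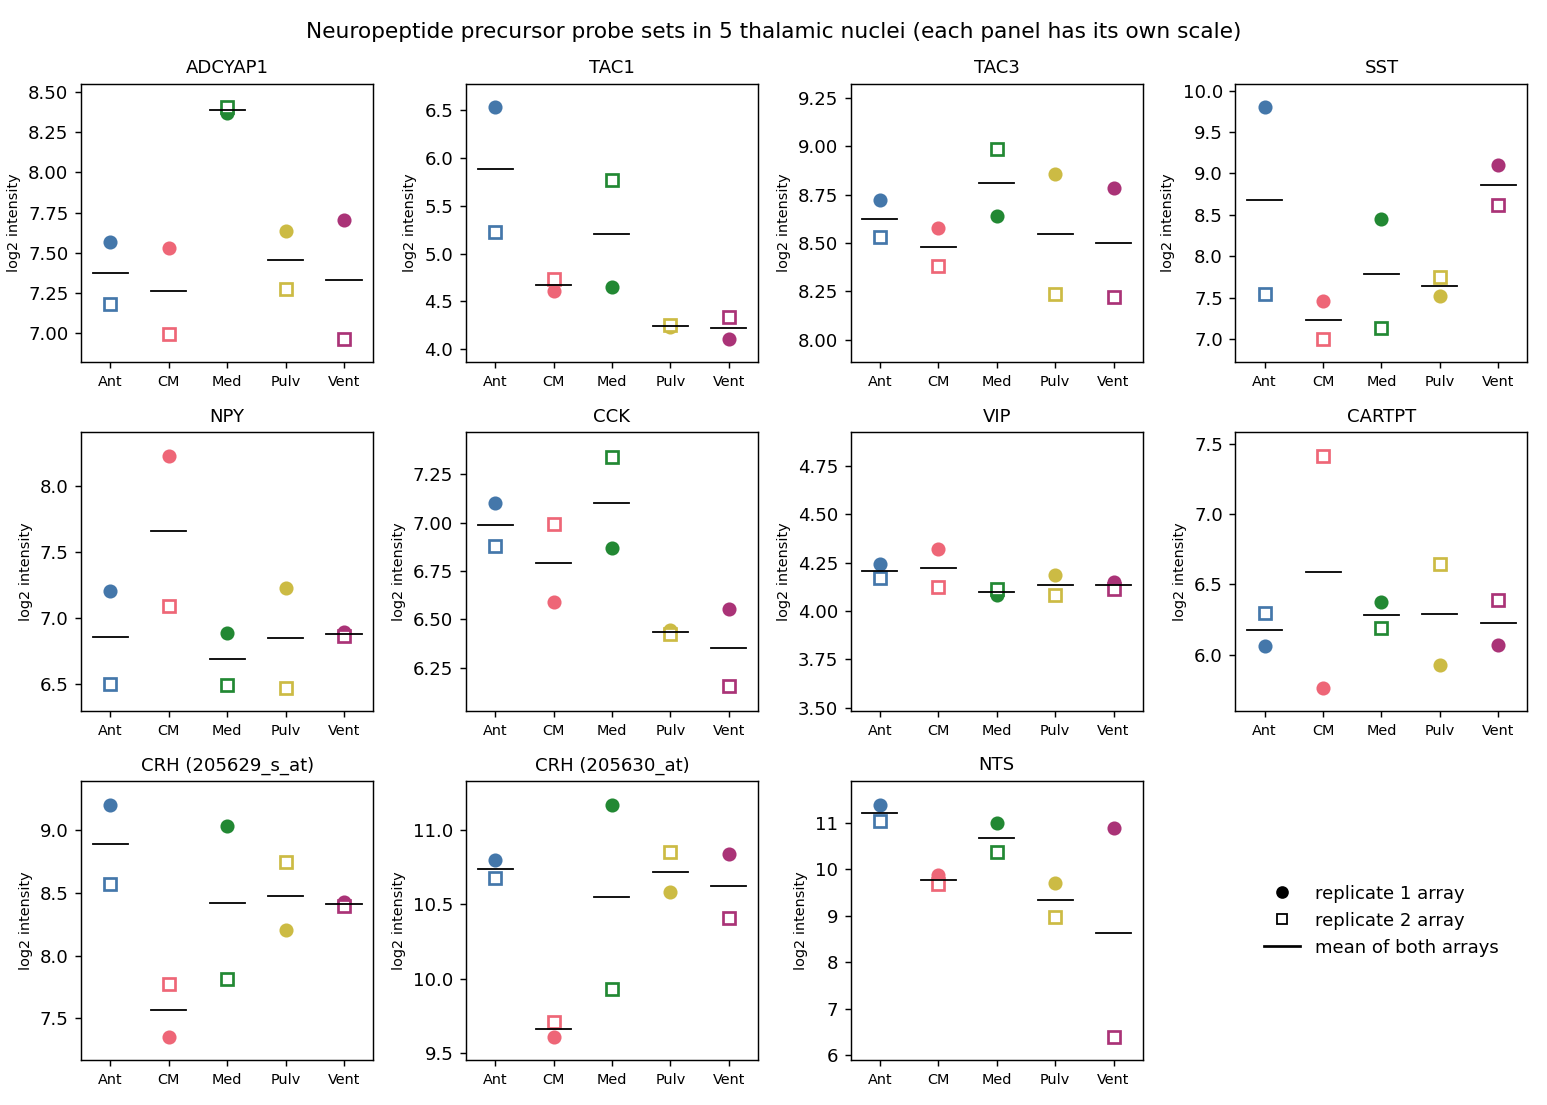
Level of each neuropeptide precursor probe set, as log2(intensity + 1), on the 10 arrays, with the 5 nuclei on the x axis, separate marks for replicate 1 and replicate 2, and a bar at the mean of each nucleus. ADCYAP1 lies at 8.37 and 8.41 in Medial Thalamus and at 6.96 to 7.70 elsewhere, and the replicates of NTS in Ventral Thalamus lie at 10.87 and 6.40.

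ADCYAP1 encodes PACAP, a peptide that raises cyclic AMP in neurons, and it was the member set apart by 1 nucleus most firmly. On the replicate 1 arrays probe set 206281_at read 8.37 in Medial Thalamus, 7.70 in Ventral Thalamus, 7.63 in Pulvinar, 7.57 in Anterior Thalamus and 7.53 in Centre Median. On the replicate 2 arrays it read 8.41 in Medial Thalamus, 7.27 in Pulvinar, 7.18 in Anterior Thalamus, 6.99 in Centre Median and 6.96 in Ventral Thalamus. Both Medial arrays were above the other 8, with no overlap, a pattern that 0.939% of all probe sets showed in Medial Thalamus. The Medial mean of 8.39 ± 0.03 (SD, n = 2) stood 1.04 above the mean of the other 4 nuclei, a 2.05-fold difference with an SE of 0.129 when the replicate number was a block. That difference passed limma's test with the block (adjusted p = 0.0143) and did not without it (SE 0.235, unadjusted p = 0.00235, adjusted p = 1.00). ADCYAP1 was the only 1 of 11 member probe sets called in Medial Thalamus with the block, where 0.0997% of all probe sets were called in either direction, and 0 of 11 were called without it (0% of all). At an unadjusted p under 0.05 the members numbered 3 of 11 with the block (9.6% of all) and 2 of 11 without it (1.08% of all).

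In pairs of nuclei with the replicate block, ADCYAP1 was higher in Medial Thalamus than in Centre Median by 1.13 (2.19-fold, SE 0.163, limma adjusted p = 0.0327), where 0.042% of all probe sets were called. It was higher in Medial than in Ventral Thalamus by 1.06 (2.08-fold, limma adjusted p = 0.0155), where 0.708% were called. The differences of Medial Thalamus from Pulvinar, 0.94, and from Anterior Thalamus, 1.02, did not pass (limma adjusted p = 0.0755 and 0.146). These were the 2 calls among 110 tests of member probe sets over the 10 pairs (0.114% over all probe sets and pairs), and without the block limma called 0 of 110 (0.00157%). At an unadjusted p under 0.05 the pairs numbered 35 of 110 with the block (7.2% over all) and 17 of 110 without it (0.816%). Within each set of arrays taken alone, Medial Thalamus exceeded the mean of the other 4 nuclei by 0.76 in replicate 1 and by 1.31 in replicate 2.

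Marker transcripts of neighbouring tissues differed between the 2 Medial arrays. On the replicate 2 array 5 of 6 measured habenula genes of 7 listed, and 3 of 4 choroid plexus genes, were the highest of their set. The summed intensity of the habenula list was 753 there against 478 to 579 on the other replicate 2 arrays, and that of the choroid plexus list was 6260 against 1625 to 1918. TTR, at 12.19 there, outweighs the rest of that choroid plexus sum. FOLR1 (probe set 211074_at), the choroid plexus gene that was not the highest, read 10.35 against 10.31 to 10.48 on the others of that set. On the replicate 1 Medial array 0 of 6 habenula genes were alone the highest of the set, though SLC18A3 was level with Pulvinar as highest, at 6.11. The habenula sum there was 569 against 586 to 701, POU4F1 read 5.56 and TTR 7.63, and ADCYAP1 was 0.76 above the other 4 nuclei. The sum of 701 was on the replicate 1 Pulvinar array, the highest of its set for 3 of 6 habenula genes, with POU4F1 at 6.27. The replicate 1 Medial array had the highest hypothalamic sum of the 10 arrays, 958 against 754 to 809 on the others of its set. TRH was the brightest gene of that list there, at 8.23 against 7.22 to 7.63, and such a sum weighs the brightest genes most. On that array 4 of 9 hypothalamic genes were the highest of the set. The Ventral replicate 1 array was also the highest for 4 of 9. By nucleus 8 of 9 hypothalamic genes were above 0 in Medial Thalamus (median difference 0.12), and limma called 0 of 9 with the block (1 of 9 at an unadjusted p under 0.05). The part of habenula, choroid plexus or hypothalamic tissue in the ADCYAP1 result was not tested. Leaving out 1 Medial array leaves that nucleus with a single array, which is then assumed to vary as the other nuclei do. On that footing ADCYAP1 in Medial Thalamus differed by 0.76 without replicate 2 (limma adjusted p = 0.0421) and by 1.31 without replicate 1 (limma adjusted p = 0.00151). The call was lost without either Anterior Thalamus array, at a limma adjusted p of 0.0549 without replicate 1 and 0.0554 without replicate 2. GAD1, an enzyme of GABA synthesis, was lower in Medial Thalamus by the blocked test on all 10 arrays (probe set 205278_at, difference -1.06, limma adjusted p = 0.0408). It did not pass without the block. With the block it was the only 1 of 12 GABA neuron probe sets called in that nucleus (0.0997% of all). The other 2 GAD1 probe sets differed by -0.10 and -0.11, and the part of GAD1 cells in the ADCYAP1 result was not tested.

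**Figure D2:**
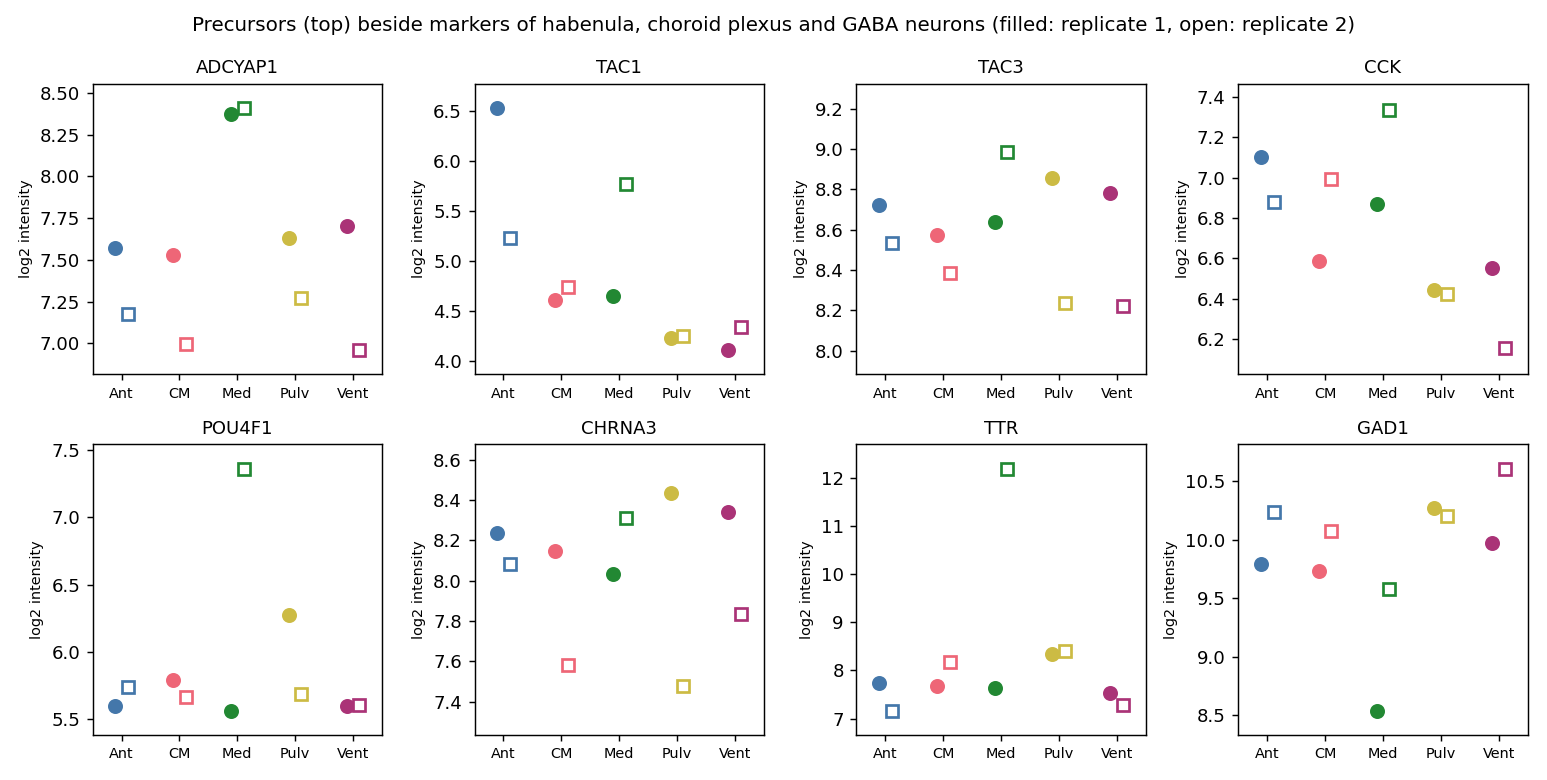
Levels as log2(intensity + 1) on the y axis of 4 precursors (top) and of the habenula genes POU4F1 and CHRNA3, the choroid plexus gene TTR and the GABA neuron gene GAD1 (bottom) in the 5 nuclei, filled circles for replicate 1 and open squares for replicate 2. The replicate 2 array of Medial Thalamus carries the highest TTR (12.19) and POU4F1 (7.36), while the replicate 1 array of that nucleus reads 7.63 and 5.56.

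VIP, from the same peptide family as PACAP, was close to the lowest signals of the arrays. Its probe set 206577_at read 4.08 to 4.32 on the 10 arrays, an intensity of 15.95 to 18.99 where the lowest intensities of the arrays were 9.49 to 12.3. No nucleus differed from the other 4 by more than 0.08, and limma's F test gave an adjusted p of 0.883 with the replicate block. Without detection calls the array does not separate a low VIP level from background.

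TAC1, the precursor of substance P and neurokinin A, was highest on the replicate 1 array of Anterior Thalamus, although the 2 arrays of that nucleus disagreed. Probe set 206552_s_at read 6.53 in Anterior Thalamus, 4.65 in Medial Thalamus, 4.61 in Centre Median, 4.23 in Pulvinar and 4.11 in Ventral Thalamus on the replicate 1 arrays. The replicate 2 arrays read 5.76 in Medial Thalamus, 5.22 in Anterior Thalamus, 4.74 in Centre Median, 4.33 in Ventral Thalamus and 4.25 in Pulvinar. Anterior and Medial Thalamus overlapped. Pulvinar and Ventral Thalamus, at 4.11 to 4.33, lay where the VIP probe set lies on these arrays, a level not separated from background, so their order was not measured. The Anterior mean of 5.88 ± 0.92 (SD, n = 2) was 1.29 above the other 4 nuclei on this log2 scale (SE 0.283), a size that depends on those low values and stood at 0.92 with a pseudocount of 16. It did not pass limma's test with the block (unadjusted p = 0.0006, adjusted p = 0.843) or without it (adjusted p = 1.00). Within the sets the Anterior difference was 2.13 and 0.45, and with the replicate 1 Anterior array alone, assumed to vary as the other nuclei do, it was past the threshold (2.13, limma adjusted p = 0.0179). TAC1 in Medial Thalamus differed from the other nuclei by -0.22 on the replicate 1 array and by 1.13 on the replicate 2 array, the array with high TTR and POU4F1. TAC1 is expressed by neurons of the medial habenula as well, and the part of those markers in its Medial level was not tested.

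TAC3, which encodes neurokinin B, varied little. Probe set 219992_at read 8.22 to 8.86 on the 8 arrays outside Medial Thalamus and 8.64 and 8.99 in Medial Thalamus, so the groups overlapped. The Medial difference of 0.27 (limma adjusted p = 0.631 with the block) had opposite signs in the 2 sets, -0.10 in replicate 1 and 0.64 in replicate 2. TAC3, like ADCYAP1, TAC1 and CCK, was higher on the replicate 2 Medial array than on the other arrays of that set. ADCYAP1 was also the highest of its set on the replicate 1 Medial array.

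SST encodes somatostatin, an inhibitory peptide found in many GABA neurons. Its probe set 213921_at read 9.80 in Anterior, 9.10 in Ventral and 8.45 in Medial Thalamus on the replicate 1 arrays, against 7.52 in Pulvinar and 7.46 in Centre Median. The replicate 2 arrays read 8.61 in Ventral Thalamus, 7.75 in Pulvinar, 7.54 in Anterior Thalamus, 7.13 in Medial Thalamus and 7.00 in Centre Median. Ventral Thalamus was high and Centre Median low in both sets, whereas Anterior Thalamus held the highest value of the 10 arrays and a middling one. The Ventral mean of 8.86 ± 0.35 (SD, n = 2) was 1.03 above the other 4 nuclei (2.04-fold, SE 0.318), and Centre Median differed from them by -1.01 (2.02-fold). Neither difference passed limma's test with the block (adjusted p = 0.232 and 0.5). Within replicate 1 and replicate 2 the Ventral difference was 0.80 and 1.26, the Centre Median difference was -1.26 and -0.76, and the Anterior difference was 1.67 and -0.08. The summed intensity of the 6 measured GABA neuron markers of 9 listed was 3254 and 6256 in Ventral Thalamus, 4416 and 3307 in Centre Median, 3436 and 2987 in Pulvinar, 1638 and 2208 in Medial Thalamus, and 2208 and 3036 in Anterior Thalamus. A sum of intensities weighs the brightest markers most. PVALB read 10.07 to 11.80 in Ventral Thalamus and Centre Median, above GAD1 (probe set 205278_at) on each array there. In the other nuclei PVALB read 7.91 to 9.84, below GAD1 on each array. The part of this sum in the SST levels was not tested.

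NPY, another peptide of GABA neurons in forebrain, had its highest mean in Centre Median, where SST had its lowest. On the replicate 1 arrays probe set 206001_at read 8.23 in Centre Median, 6.89 in both Medial and Ventral Thalamus, 7.21 in Anterior Thalamus and 7.23 in Pulvinar. On the replicate 2 arrays it read 7.09 in Centre Median, 6.86 in Ventral Thalamus, 6.51 in Anterior Thalamus, 6.50 in Medial Thalamus and 6.47 in Pulvinar. Centre Median was the highest of each set, but its replicate 2 value fell within the range of the replicate 1 arrays of other nuclei. The Centre Median mean of 7.66 ± 0.80 (SD, n = 2) was 0.84 above the other 4 nuclei (1.79-fold, SE 0.160), with an unadjusted p of 0.000187 and an adjusted p of 0.0936 by limma with the block and an adjusted p of 1.00 without it. The within-set differences were 1.17 and 0.51. Leaving out the replicate 2 Ventral array brought the blocked difference to 0.93 and past the threshold (limma adjusted p = 0.0223).

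CCK, the cholecystokinin precursor, is abundant in cortical and some thalamic neurons. Probe set 205827_at read 6.87 and 7.34 in Medial Thalamus, 7.10 and 6.88 in Anterior Thalamus, 6.59 and 6.99 in Centre Median, 6.44 and 6.42 in Pulvinar and 6.55 and 6.16 in Ventral Thalamus, replicate 1 first. The means were higher in Medial and Anterior Thalamus than in Pulvinar and Ventral Thalamus, with Centre Median between. This order was read from the values themselves. The difference from the other 4 nuclei was 0.46 in Medial Thalamus (limma adjusted p = 0.302 with the block), 0.32 in Anterior Thalamus (0.877), -0.38 in Pulvinar (0.999) and -0.47 in Ventral Thalamus (0.245), and none passed. The sign was the same in both sets for each of these 4 nuclei. In Medial Thalamus the difference was 0.20 on the replicate 1 array and 0.73 on the replicate 2 array, which carried the habenula and choroid plexus markers.

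CARTPT encodes the precursor of CART peptides, which act in feeding and reward circuits. Its probe set 206339_at read 5.76 and 7.42 in Centre Median, the lowest and the highest of the 10 arrays, while the other nuclei read 5.93 to 6.65. The Centre Median difference of 0.35 (limma adjusted p = 0.948 with the block) was -0.34 in replicate 1 and 1.04 in replicate 2. In all 5 nuclei the CARTPT difference from the others had opposite signs in the 2 sets.

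CRH encodes corticotropin-releasing hormone, which drives the pituitary stress axis and also acts as a transmitter in forebrain. Its 2 probe sets gave the same picture, with Centre Median lowest. Probe set 205629_s_at read 7.35 and 7.77 in Centre Median and 7.81 to 9.21 on the other 8 arrays. Probe set 205630_at read 9.61 and 9.71 in Centre Median and 9.93 to 11.17 on the other 8 arrays. Both Centre Median arrays were below the other 8 for both CRH probe sets, a pattern seen in 0.698% of all probe sets. The difference from the other 4 nuclei was -0.99 for each (1.98-fold, SE 0.254 and 1.99-fold, SE 0.219). Neither passed limma's test with the block (unadjusted p = 0.00201 and 0.000627, adjusted p = 0.281 and 0.159), nor without it (adjusted p = 1.00 for both).

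Within the sets the CRH difference of Centre Median was -1.37 and -0.61 for 205629_s_at and -1.23 and -0.75 for 205630_at. The array closest to Centre Median was the replicate 2 array of Medial Thalamus, at 7.81 and 9.93, while the replicate 1 array of that nucleus read 9.03 and 11.17. Without the replicate 2 Medial array both CRH probe sets passed in Centre Median (-1.15, limma adjusted p = 0.0272, and -1.14, limma adjusted p = 0.00933, with the block). Without the replicate 1 Medial array 205630_at passed (-0.84, limma adjusted p = 0.0492). With the actin 3' to 5' signal difference of each array as a covariate beside the block, 205629_s_at passed (-1.16, limma adjusted p = 0.0454). The summed intensity of the 9 hypothalamic markers, all measured, was 754 and 673 in Centre Median and 642 to 958 elsewhere. Its highest value, 958, was on the replicate 1 Medial array, where TRH, its brightest gene, read 8.23 and 205630_at read 11.17. The part of this sum in the CRH levels was not tested.

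NTS encodes neurotensin and neuromedin N, and it had the widest range of nucleus means of the member probe sets, 2.57. On the replicate 1 arrays probe set 206291_at read 11.39 in Anterior Thalamus, 10.98 in Medial Thalamus, 10.87 in Ventral Thalamus, 9.87 in Centre Median and 9.71 in Pulvinar. The replicate 2 arrays read 11.02 in Anterior Thalamus, 10.36 in Medial Thalamus, 9.67 in Centre Median, 8.98 in Pulvinar and 6.40 in Ventral Thalamus. Both Anterior arrays were above the other 8, as in 0.829% of all probe sets, and Medial Thalamus came next within each set. The replicates of Ventral Thalamus differed by 4.48, a 22.3-fold gap (mean 8.63 ± 3.16, SD, n = 2), and in the other nuclei the replicate 2 array differed from replicate 1 by -0.20 to -0.73.

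The Ventral arrays were also those with the highest actin 3' to 5' difference of each set, 1.22 and 1.64, whose part in the NTS and SST levels was not tested. With that difference as a covariate beside the block, Ventral Thalamus differed by -3.63 for NTS (limma adjusted p = 0.175) and by 1.72 for SST (0.409).

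The NTS contrasts turned on that pair of arrays. With all 10 arrays and the block, Anterior Thalamus was 1.60 above the other 4 nuclei (3.03-fold, SE 0.581, limma adjusted p = 0.852) and Ventral Thalamus differed from them by -1.61 (3.06-fold, limma adjusted p = 0.311), and neither passed. The Ventral difference was 0.39 in replicate 1 and -3.61 in replicate 2. Leaving out either Ventral array brought NTS past the threshold in limma's F test, with an adjusted p of 1.78e-05 without replicate 1 and 0.00893 without replicate 2, against 0.468 with both. The Ventral nucleus then has a single array, assumed to vary as the other nuclei do. The calls behind these differed. Without replicate 1 they were Anterior (2.10, limma adjusted p = 5.98e-05), Medial (1.43, limma adjusted p = 0.00422) and Ventral Thalamus (-3.61, limma adjusted p = 4.42e-06), and without replicate 2 only Pulvinar was called (-1.23, limma adjusted p = 0.0342). The Anterior difference without the replicate 2 Ventral array was 1.10 (limma adjusted p = 0.105). Anterior Thalamus was above the other 4 nuclei by 1.03 in replicate 1 and 2.17 in replicate 2.

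**Figure D3:**
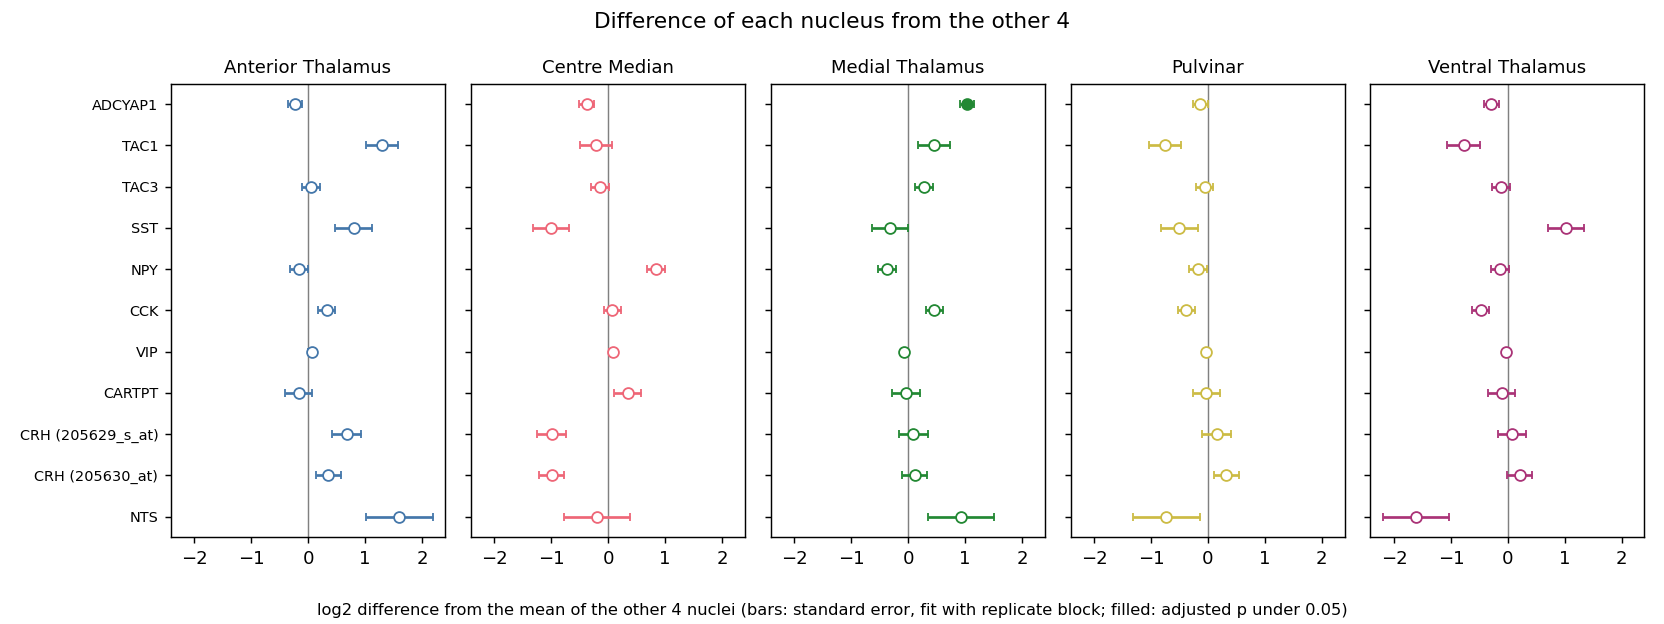
Difference of each nucleus from the mean of the other 4 for the 11 probe sets, as a difference of log2(intensity + 1), with bars of 1 SE from the fit with the replicate block and filled points where the adjusted p was under 0.05. ADCYAP1 in Medial Thalamus, at 1.04, is the only difference drawn that passed an adjusted p of 0.05, which it did not without the block.

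Outside Medial Thalamus no member probe set was called against the other 4 nuclei by limma in either fit. With the block the counts were 0 of 11 in Anterior Thalamus (0% of all probe sets), Centre Median (0.0944%), Pulvinar (0%) and Ventral Thalamus (0.336%), and without it also 0 of 11 in each (0%, 0.0105%, 0% and 0%). At an unadjusted p under 0.05 with the block the members numbered 4 in Anterior Thalamus (5.63% of all probe sets), 5 in Centre Median (5.92%), 2 in Pulvinar (3.78%) and 5 in Ventral Thalamus (10.7%). Without the block they numbered 1 (0.372%), 3 (0.913%), 0 (0.336%) and 1 (1.4%). Apart from ADCYAP1, NTS and CRH, no member had both arrays of a nucleus above or below the other 8. The share of all probe sets with that pattern was 0.498% for Anterior Thalamus below, 0.96% for Centre Median above, 0.829% for Medial Thalamus below, 0.54% and 0.404% for Pulvinar above and below, and 1.57% and 1.14% for Ventral Thalamus above and below. When the 5 nuclei were put in order of their means for each probe set, 0 of the 44 neighbouring pairs differed by limma's test in either fit (5 with the block and 2 without at an unadjusted p under 0.05), the smallest adjusted p being 0.0755 for ADCYAP1 in Medial Thalamus and Pulvinar.

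Some peptide precursors differed between the 2 numbered sets of arrays. With nucleus in the fit, limma called 5 of 11 member probe sets between replicate 2 and replicate 1, a share below the 54% of all probe sets. ADCYAP1, SST, NPY and NTS, 4 of 11, were lower in replicate 2 (29.9% of all), and CARTPT, 1 of 11, was higher (24.1% of all). The mean difference was -0.60 for NPY (limma adjusted p = 0.00179), -0.40 for ADCYAP1 (0.00629), -0.86 for SST (0.0128), -1.28 for NTS (0.0344) and 0.55 for CARTPT (0.0277). NPY and NTS were lower in replicate 2 in 5 of 5 nuclei, whereas ADCYAP1 differed by 0.04 in Medial Thalamus, SST by 0.23 in Pulvinar and CARTPT by -0.19 in Medial Thalamus, against the sign of their means. Single nuclei carried much of 3 of these means. Without either Ventral array the NTS difference was -0.48 (limma adjusted p = 0.00609 and 0.00759), and without either Anterior array that of SST was -0.51 (0.0426 and 0.0433). The CARTPT call was lost without either Centre Median array (0.27, limma adjusted p = 0.102 and 0.0999) or either Pulvinar array (0.51, 0.0819 and 0.0825), and the NTS call was lost without the replicate 2 Pulvinar array (-1.42, 0.0501). The count was 3 without the replicate 2 Pulvinar array. TAC1, TAC3, CCK, VIP and CRH did not pass with all arrays in the fit. The TAC3 difference of -0.24 depended on Medial Thalamus, which differed by 0.35, and it was -0.39 without either Medial array.

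**Figure D4:**
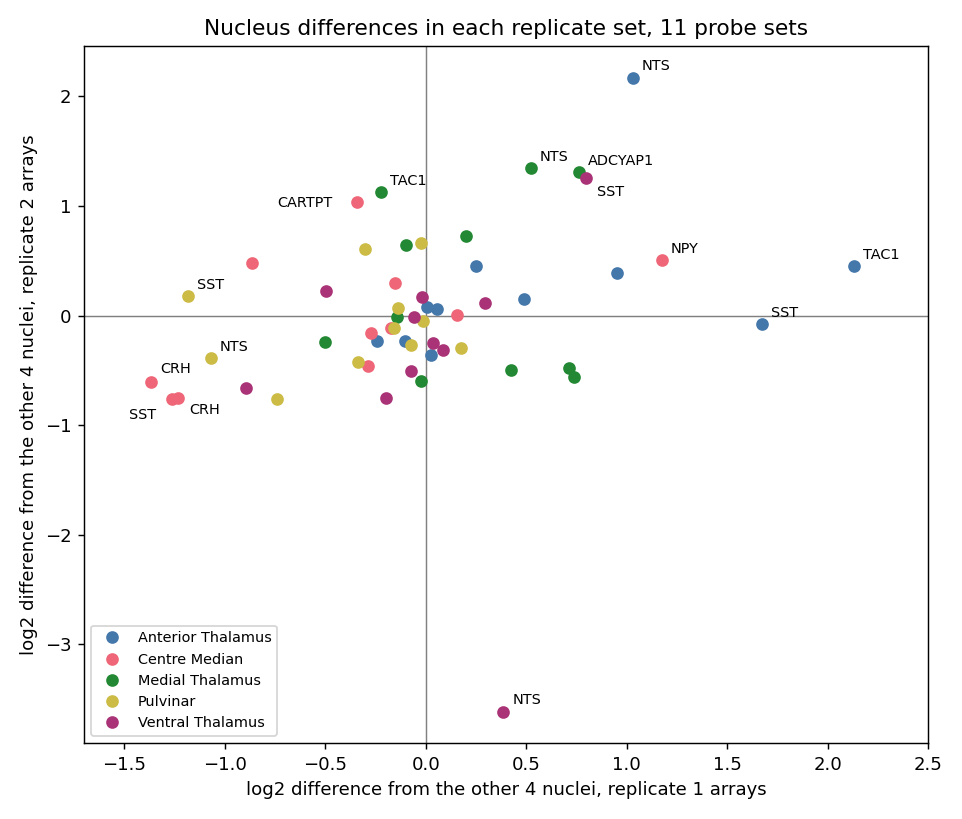
Difference of each nucleus from the other 4 computed within replicate 1 (x axis) and within replicate 2 (y axis), in log2 units, 1 point per member probe set and nucleus. Points in the upper right and lower left quadrants have the same sign in both sets, as for ADCYAP1 in Medial Thalamus (0.76 and 1.31), and NTS in Ventral Thalamus (0.39 and -3.61) lies far below the others.

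Computed within each set, the direction of a member in a nucleus was the same in both sets in 35 of 55 cases, beside 52.1% over all probe sets. By nucleus it was the same for 9 of 11 member probe sets in Anterior Thalamus (49.8% of all), 8 in Centre Median (52.6%), and 6 each in Medial Thalamus (50.9%), Pulvinar (48.6%) and Ventral Thalamus (58.7%). Among the replicate 1 arrays, the 3 with low XIST did not overlap with the other 2 for 6 of 11 member probe sets, against 20.8% of all probe sets, and were higher for 5 of 11 (9.24% of all). SST read 8.45 to 9.80 on those 3 arrays against 7.46 to 7.52, NTS 10.87 to 11.39 against 9.71 to 9.87, and CARTPT 6.06 to 6.38 against 5.76 to 5.93. Both CRH probe sets were also higher on the 3 arrays, at 8.43 to 9.21 against 7.35 to 8.20 and at 10.80 to 11.17 against 9.61 to 10.58, while NPY was lower, at 6.89 to 7.21 against 7.23 to 8.23. In replicate 1 the XIST level and the nucleus cannot be told apart for these members. With that split added to the block, ADCYAP1 in Medial Thalamus stood at 1.06 (limma adjusted p = 0.0251).

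The genes that make, sense and degrade these peptides were read from lists of 44 genes, of which 39 were measured by 59 probe sets. By limma 0 of 59 were called in any nucleus or by the F test, in either fit. At an unadjusted p under 0.05 the F test with the block passed 9 of 59 (15.3%, against 8.92% of all probe sets), and without the block 0 of 59. All 9 were among the 19 probe sets for processing enzymes and dense-core vesicle proteins (14 of 16 genes measured). None was among the 32 probe sets for receptors and the CRH binding protein (21 of 23 genes) or the 8 for peptidases (4 of 5 genes). SCG3, ADCYAP1R1 and CRHBP are named below after their values were seen. The smallest adjusted p was that of SCG3, a granin of dense-core vesicles, in Ventral Thalamus (0.77 above the other 4 nuclei, limma adjusted p = 0.133 with the block). SCG3 passed when replicate 1 was split by XIST (0.99, limma adjusted p = 0.00225) and without the replicate 2 Medial array (0.86, limma adjusted p = 0.0349).

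By nucleus the list medians were small. The receptor probe sets had a median difference of 0.03 in Medial Thalamus, with 24 of 32 above 0, and of -0.06 in Ventral Thalamus, with 8 of 32 above 0, where the median of all probe sets was -0.02. Those for processing had a median of 0.08 in Medial Thalamus, with 14 of 19 above 0, and of -0.14 in Centre Median, with 6 of 19 above 0. For ADCYAP1R1, the PACAP receptor, probe set 207151_at differed by -0.10 in Medial Thalamus (limma adjusted p = 0.834 with the block), where the ligand was higher. For CRHBP, the protein that binds CRH, the difference in Centre Median was -0.02 (limma adjusted p = 0.999 with the block).

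The genes whose pattern was most like that of a member were found by Pearson's r over the 10 arrays after the mean of each replicate set was subtracted, among probe sets above the lowest 25% by mean. These values describe the arrays, which share their normalisation, and the genes were picked as the highest r of all those probe sets. A single array can weigh most in such an r. For NTS it was the replicate 2 Ventral array (-3.61 from the other 4 nuclei of its set), and for TAC1 the replicate 1 Anterior array (2.13). For ADCYAP1 they were MS4A6A (0.948), NECAB3 (0.946) and COL1A2 (0.941), and for TAC1 NR4A3 (0.960), DYRK4 (0.958) and ENPP3 (0.949). For SST they were PDE6D (0.976), METTL25B (0.926) and SYNJ2 (0.921), and for NTS PCLAF (0.984), GM2A (0.948) and CD1A (0.944). For CRH 205629_s_at they were GABRA5 (0.981), TSHZ2 (0.977) and HTRA2 (0.949). The nucleus means of these 15 genes ranged over 0.19 to 0.89 log2 units, less than those of the member each was matched to, and none was called by the F test with the block.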

How the data were processed

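Per the submitters' processing notes the authors processed the arrays with RMA, and the deposited values are normalised intensities on a linear scale; the version and whether both replicate sets were normalised together are not given in the sources used here. Of 22283 probe sets, 68 controls, 2107 without a symbol and 1043 with several symbols were left out. GEO's platform annotation, which can be old, supplied the symbols. Intensities were taken as log2(value + 1) and fitted with limma 3.58.1 in R 4.3.3 (lmFit, eBayes with a variance trend, 1 coefficient per nucleus over all 10 arrays), with Benjamini-Hochberg adjustment over 19065 probe sets and a threshold of 0.05. The second fit added the replicate number as a block. The deviations of replicate 2 from replicate 1 correlated between every pair of nuclei (10 pairs, 0.752 to 0.828). This shows a shift shared by the nuclei, and not that arrays of the same number come from matched samples. The block takes out that shift, and blocked values stand beside results whose call they change. All member probe sets were named, and the member called by an F test and the 4 with the widest spread of nucleus means after centring each set were described in full. The pathway and marker lists and the members were chosen with earlier results of these data known. The fits were tested on simulated data. Precision is limited by 2 arrays per nucleus.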

Additional observations from a re-analysis of the deposited data

How the results depend on the processing

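Without the replicate block, limma called 0 member probe sets in every nucleus contrast, in the F test and in the pairs under each alternative run: quantile normalisation, a pseudocount of 16, leaving out the lowest 25% of probe sets, 1 probe set per gene, no variance trend, and leaving out each array. With the block the F test called 1 member. The count was the same with the block and replicate 1 split by XIST, an actin covariate, quantile normalisation, a pseudocount of 16, the filter, or 1 probe set per gene. It was 0 with the block and no variance trend. Medial Thalamus had 1 call under all of these, the last included, and Centre Median had 1 with the actin covariate alone. The pairs gave 2 calls with the block, 1 with the split, 4 with the actin covariate, 2 each with quantile normalisation, the pseudocount, the filter and 1 probe set per gene, and 1 without the trend. The last 4 combinations with the block, other than quantile normalisation, were chosen after seeing the data. The pathway lists had 1 call, SCG3, with the split.

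Leaving out 1 array at a time with the block, which leaves 1 nucleus with a single array assumed to vary like the rest, gave 0 to 3 calls in the F test, 1 to 9 in the pairs (9 without the replicate 1 Ventral array, 5 without the replicate 2 Anterior or the replicate 1 Medial array, 4 without the replicate 2 Ventral array), 0 to 1 in Anterior Thalamus, Pulvinar, Ventral Thalamus and the pathway lists, 0 to 2 in Centre Median and Medial Thalamus, and 3 to 6 between replicate sets. Some uncalled differences changed sign: TAC3 in Medial Thalamus (-0.10 to 0.64 with the block), VIP in Centre Median (-0.021 to 0.18), CARTPT in Centre Median (-0.48 to 1.17, and -0.34 to 1.04 with the block) and NTS in Ventral Thalamus (-3.85 to 0.62, and -3.61 to 0.39 with the block). The cause was not tested. Values of single members under alternatives were set against the fit without the block, where none was called. Of these, 360 kept their direction and side of the threshold, 24 came past it and 6 changed sign. The 24 include each blocked setting in which ADCYAP1 passed in Medial Thalamus. A blocked call that was lost, as for ADCYAP1 without either Anterior array, does not show in this tally. Human probes on monkey RNA, no detection calls and 2 arrays per nucleus limit small differences, and VIP and TAC1 lie near the low end of signal.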
